A study of Mus musculus with 9 samples.

Results

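Cathepsins are the proteases of the lysosome. Most are cysteine peptidases of the papain family, while cathepsin D is an aspartic peptidase and cathepsin A a serine carboxypeptidase. They are made as inactive precursors, tagged with mannose 6-phosphate in the Golgi, carried to acidic compartments by sorting receptors and activated there by cleavage. In neurons they degrade the contents of autophagosomes and endosomes, and in macrophages they are abundant and also process antigens.

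The 8 lysosomal cathepsin genes Ctsa, Ctsb, Ctsd, Ctsf, Ctsh, Ctsl, Ctso and Ctsz were taken by symbol from a table of 21899 mouse genes measured by poly(A) RNA-seq in 9 libraries. Ctss and Ctsc, which were almost absent from the knockdown libraries, were not among them, so the choice of genes drew on their levels. The libraries came from Neuro-2a (N2a) cells, an established mouse neuroblastoma line labelled as neuroblast, and no other treatment is given. The 3 shlucif libraries carried a control hairpin against luciferase. The 3 shArf1-1 and 3 shArf1-2 libraries each carried a different hairpin against Arf1, the small GTPase that recruits coat proteins to Golgi membranes. Hairpins were delivered by lentiviral vectors with puromycin resistance. Whether the 3 libraries of a group came from separate cultures is not given in the sources used here, so p-values measure only the spread between these libraries. The series compared control with Arf1-deficient N2a cells to study the part of Arf1 in lipid metabolism, and the cathepsin transcripts were read here from the same libraries. Each gene had a read count and an FPKM value (counts scaled to the length of the gene and the total of the library) in each library, and a library held 11182479 to 15594615 counts.

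The target sites of both hairpins are shown because they define the knockdown groups. Each is 21 bases long, lies on the minus strand of chromosome 11 (GRCm38) in the coding sequence of Arf1, and was found in both annotated Arf1 transcripts and in none of 57 annotated transcripts of the 8 cathepsin genes. The shArf1-1 site lies in exon 3 of 5 at chr11:59213222-59213242, and the shArf1-2 site in exon 2 at chr11:59213386-59213406.
shArf1-1: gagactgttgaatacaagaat
shArf1-2: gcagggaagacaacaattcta

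Arf1 itself was at 328, 316 and 328 FPKM in shlucif replicates 1 to 3, at 130, 128 and 127 FPKM in the shArf1-1 libraries and at 166, 157 and 171 FPKM in the shArf1-2 libraries. No group overlapped another. The log2 fold change of Arf1 against shlucif was −1.39 (SE 0.05, adjusted p = 1.39e-22) with shArf1-1 and −1.05 (SE 0.05, adjusted p = 4.2e-19) with shArf1-2. These and all adjusted p-values that follow are from quasi-likelihood tests in edgeR, adjusted by Benjamini-Hochberg over 12448 tested genes.

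Markers of another cell type differed between the groups. Summed over 20 macrophage and microglia markers, the shlucif libraries were at 218, 194 and 180 FPKM, while the 6 Arf1-deficient libraries were between 0.806 and 1.39 FPKM. Cd68, a lysosomal protein of macrophages, was at 55.3 ± 5.5 FPKM in shlucif (SD, n = 3), 0.304 ± 0.16 with shArf1-1 and 0.226 ± 0.15 with shArf1-2. Spi1, the transcription factor that defines the myeloid lineage, was at 3.99 ± 0.32 FPKM in shlucif and at 0 in all 6 Arf1-deficient libraries. In each Arf1-deficient library 11 to 14 of the 20 markers were at 0, against at most 1 in shlucif. Of the 17 markers tested, 16 were lower and Mrc1, at 0.0767 FPKM in shlucif, was higher (adjusted p = 0.0262). The 16 markers would not have passed the filter on low counts without shlucif, nor Mrc1 without the Arf1-deficient libraries, so these directions followed from the filter. Sympathetic neuroblast markers summed to 923 ± 16.9 FPKM in shlucif, 1771 ± 76.7 with shArf1-1 and 1608 ± 44.9 with shArf1-2. Abundant genes weigh most in these sums. Chgb was at 160, 500 and 365 FPKM in the same order, and Tubb3 at 410, 694 and 695 FPKM. Of the 14 tested, 13 were higher, with Th as the exception, and the median log2 fold change was 0.63. Fibroblast markers summed to 7.06, 2.26 and 3.52 FPKM, and 2 of 4 tested, Col1a1 and Pdgfrb, were lower. Over all 12448 tested genes, 3933 were higher and 4094 (32.9%) were lower in the Arf1-deficient libraries. The cathepsin results below, Ctso apart, move with these marker levels, and the part of the markers' source in those results was not tested. In bulk RNA, fewer cells of a type and less RNA per cell cannot be told apart.

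**Figure D1:**
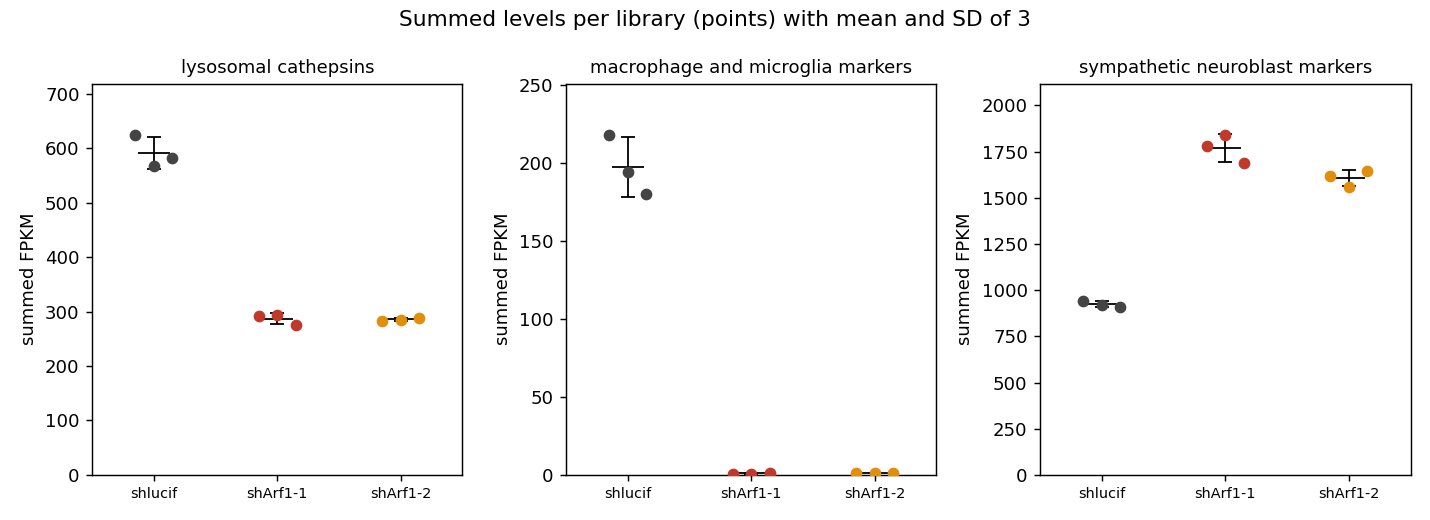
Summed FPKM per library of the 8 lysosomal cathepsin genes, the 20 macrophage and microglia markers and the 16 sympathetic neuroblast markers, by hairpin group. Points are libraries, with the mean and SD of 3; the cathepsin and macrophage sums were lower in every Arf1-deficient library than in any shlucif library, and the neuroblast sum was higher.

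In the comparison of all 6 Arf1-deficient libraries with the 3 shlucif libraries, 7 of the 8 cathepsin genes were lower and Ctso did not pass the threshold of adjusted p under 0.05. Over all tested genes 64.5% passed in either direction and 32.9% were lower. This comparison takes the 6 Arf1-deficient libraries of 2 hairpins as a single group, so any difference between the hairpins is part of its spread. For the same 7 genes every Arf1-deficient library lay below every shlucif library, a pattern found in 30.1% of tested genes. Ctsh was above the filter on low counts only through the shlucif libraries, so its fall followed from its passing that filter, and 6 of the other 7 genes were lower. The median log2 fold change of these 7 genes was −0.98, and that of all tested genes was 0.00. The 8 genes together fell from 592 ± 29.6 summed FPKM in shlucif to 287 ± 10.6 with shArf1-1 and 285 ± 3.06 with shArf1-2. The shlucif library with the highest macrophage marker sum, replicate 1, also held the highest FPKM of every cathepsin gene except Ctsf, and the highest neuroblast marker sum. Between replicates 2 and 3, the macrophage sum was higher in replicate 2 (194 against 180 FPKM). Ctsa, Ctsb and Ctsl were also higher in replicate 2, while Ctsd, Ctsf, Ctso and Ctsz were higher in replicate 3. Ctsh was at 1.78 FPKM in both. Some of these differences were small, and the orders among the 3 shlucif libraries were not tested.

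**Figure D2:**
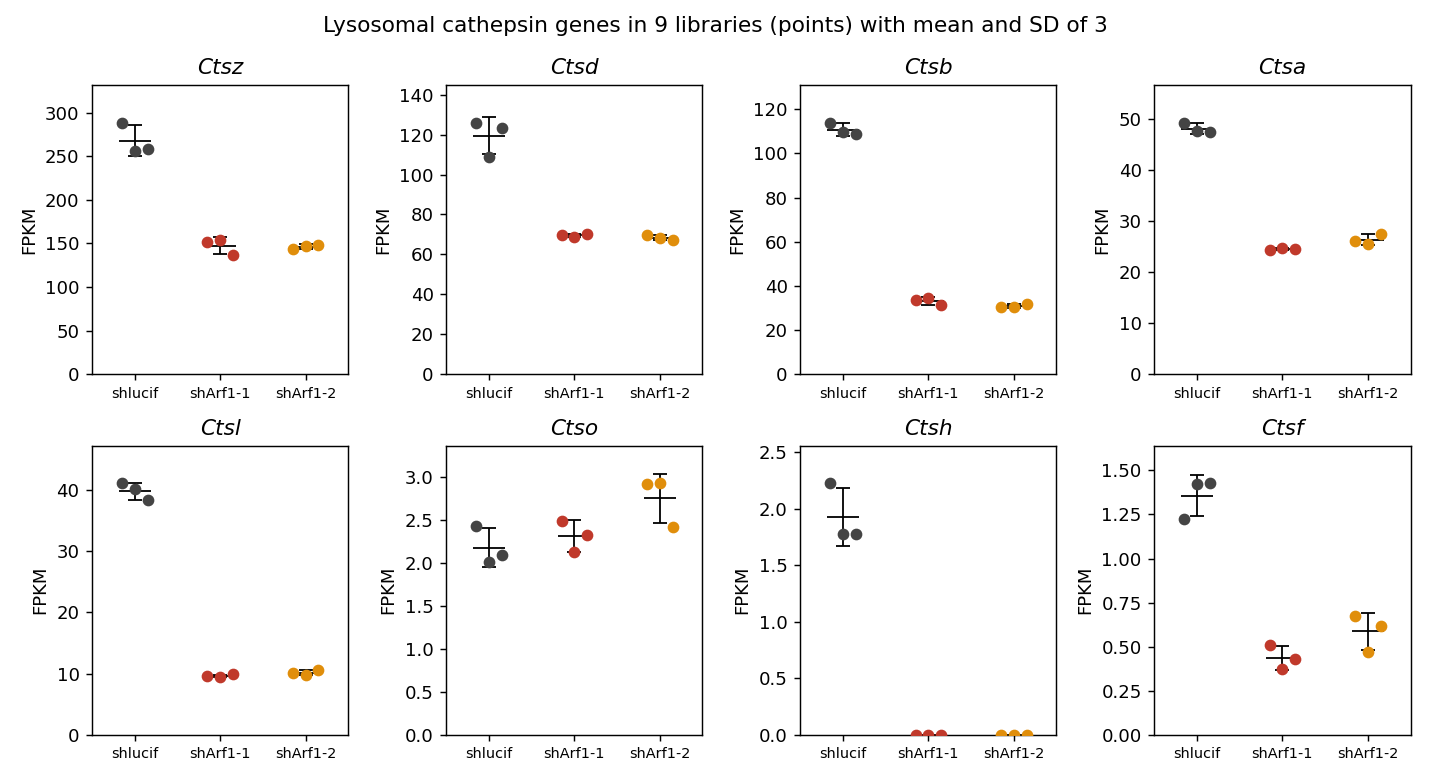
FPKM of each lysosomal cathepsin gene in each of the 9 libraries (points), by hairpin group, with the mean and SD of 3 libraries; each panel has its own axis from 0. In 7 panels all Arf1-deficient libraries lie below all shlucif libraries, in the Ctsh panel at 0, and in the Ctso panel the groups overlap.

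Ctsb and Ctsl, the most studied cysteine endopeptidases of the lysosome, fell the most among the cathepsin genes with counts in every library. Ctsb was at 114, 110 and 109 FPKM in shlucif, at 33.8, 34.3 and 31.3 FPKM with shArf1-1 and at 30.3, 30.3 and 31.9 FPKM with shArf1-2. Its knockdown libraries thus lay close together and far below the controls, at 29.9% and 27.8% of the shlucif mean. The log2 fold change of Ctsb was −1.86 (SE 0.05, adjusted p = 6.82e-16), and 4.67% of tested genes had a lower value. Ctsl was at 41.0, 40.1 and 38.3 FPKM in shlucif, at 9.58, 9.45 and 9.86 FPKM with shArf1-1 and at 10.1, 9.78 and 10.6 FPKM with shArf1-2. Both hairpin groups were again low in every library, at 24.2% and 25.5% of the shlucif mean. Ctsl had a log2 fold change of −2.07 (SE 0.05, adjusted p = 1.22e-16), and 4.16% of tested genes had a lower value.

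Ctsf and Ctso are less abundant cysteine cathepsins, and they behaved differently from each other. Ctsf was at 1.22, 1.42 and 1.43 FPKM in shlucif, at 0.507, 0.373 and 0.433 FPKM with shArf1-1 and at 0.677, 0.472 and 0.616 FPKM with shArf1-2. These levels rest on 85 to 98 counts per library in shlucif and 21 to 50 counts in the Arf1-deficient libraries, which do not overlap. The log2 fold change of Ctsf was −1.46 with an SE of 0.20, wider than for the abundant genes (adjusted p = 2.58e-06). Ctso was at 2.44, 2.01 and 2.09 FPKM in shlucif, at 2.50, 2.13 and 2.33 FPKM with shArf1-1 and at 2.92, 2.93 and 2.43 FPKM with shArf1-2. All 3 groups overlapped. Ctso had a log2 fold change of 0.16 (SE 0.13, adjusted p = 0.283) with a 95% interval from −0.11 to 0.42, so a fall of the size seen in the other cathepsin genes lay outside that interval. With shArf1-2 alone Ctso was at 0.27 (SE 0.13, adjusted p = 0.0703), and this difference passed the threshold as higher under 5 of 18 alternatives, with adjusted p from 0.0222 to 0.226 over all of them.

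Ctsz and Ctsh encode exopeptidases of the cysteine class, a carboxypeptidase and chiefly an aminopeptidase respectively. Ctsz had the highest FPKM of the 8 genes. It was at 289, 257 and 259 FPKM in shlucif, 152, 154 and 136 FPKM with shArf1-1 and 144, 147 and 149 FPKM with shArf1-2. The groups with either Arf1 hairpin overlapped each other and lay below all controls, at 55.0% and 54.6% of the shlucif mean. For Ctsz this gave a log2 fold change of −0.93 (SE 0.05, adjusted p = 2.82e-11). Ctsh was at 2.22, 1.78 and 1.78 FPKM in shlucif, from 107 to 138 counts per library, and had no count in any of the 6 Arf1-deficient libraries. Against a floor of 3 counts per library, Ctsh was at least 38.8-fold lower in the Arf1-deficient libraries on the CPM scale (counts scaled to the library total). The floor covers counting error only. Ctsh was thus not detected across all groups as the other 7 genes were. Ctss and Spi1 were also at 0 in all 6 of those libraries, and whether the 3 genes share a source was not tested.

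Ctsd and Ctsa, the cathepsins of the aspartic and serine classes, fell by less than Ctsb and Ctsl, as Ctsz did. Ctsd was at 126, 109 and 123 FPKM in shlucif, at 69.6, 68.9 and 70.2 FPKM with shArf1-1 and at 69.5, 68.4 and 67.2 FPKM with shArf1-2. The Arf1-deficient libraries were tightly grouped, while the controls had an SD of 9.28 FPKM. Ctsd had a log2 fold change of −0.86 (SE 0.05, adjusted p = 8e-11), and 11.4% of tested genes had a lower value. Ctsa was at 49.3, 47.6 and 47.5 FPKM in shlucif, at 24.4, 24.8 and 24.5 FPKM with shArf1-1 and at 26.0, 25.5 and 27.6 FPKM with shArf1-2. It was close to 1 log2 unit lower in both hairpin groups, with a log2 fold change of −0.98 (SE 0.05, adjusted p = 6.04e-12). The 95% intervals of Ctsl (−2.18 to −1.96) and Ctsb (−1.96 to −1.75) lay below those of Ctsa (−1.09 to −0.87), Ctsz (−1.04 to −0.82) and Ctsd (−0.97 to −0.74). The interval of Ctsf (−1.87 to −1.05) was wider and overlapped those of Ctsb and Ctsa. The differences between genes were not tested.

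FPKM divides counts by the listed length of each gene, so an order of genes by FPKM depends on those lengths. Ctsz is listed at 1441 bases and Ctsb at 6051. By counts in shlucif, Ctsb (8886 to 9503 per library) was above Ctsz (4949 to 5734). By FPKM the order in shlucif was Ctsz, Ctsd, Ctsb, Ctsa, Ctsl, Ctso, Ctsh and Ctsf. The library ranges of Ctsd and Ctsb overlapped there, as did those of Ctso and Ctsh, and the other neighbours did not. In both Arf1-deficient groups the order was Ctsz, Ctsd, Ctsb, Ctsa, Ctsl, Ctso, Ctsf and Ctsh, with no overlap between neighbours. Ctsd and Ctsb, at 119 ± 9.28 and 111 ± 2.74 FPKM in shlucif, were thus apart in the knockdowns, at 69.6 ± 0.642 and 33.1 ± 1.60 FPKM with shArf1-1. Among all 21899 genes of the table, Ctsb ranked 352 by mean FPKM in shlucif, 1622 with shArf1-1 and 1739 with shArf1-2, and Ctsl ranked 1235, 5118 and 4962. Ctsz moved less, from rank 132 to 241 and 238.

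The unequal falls shifted the make-up of the cathepsin transcripts. Ctsz took 45.3% ± 0.879 of the summed FPKM of the 8 genes in shlucif (SD, n = 3), 51.3% ± 1.54 with shArf1-1 and 51.3% ± 0.501 with shArf1-2. The share of Ctsd was 20.2%, 24.3% and 24.0% in the same order. The share of Ctsb was lower in the knockdowns, at 18.7% ± 0.545 in shlucif against 11.5% ± 0.140 and 10.8% ± 0.207, and that of Ctsl was 6.73%, 3.36% and 3.56%. Ctsa moved from 8.14% to 8.56% and 9.23%. For Ctsz, Ctsb, Ctsd and Ctsl no library of either knockdown group overlapped the shlucif range. These shares depend on the listed gene lengths and are given as a description. No difference between them was tested.

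**Figure D3:**
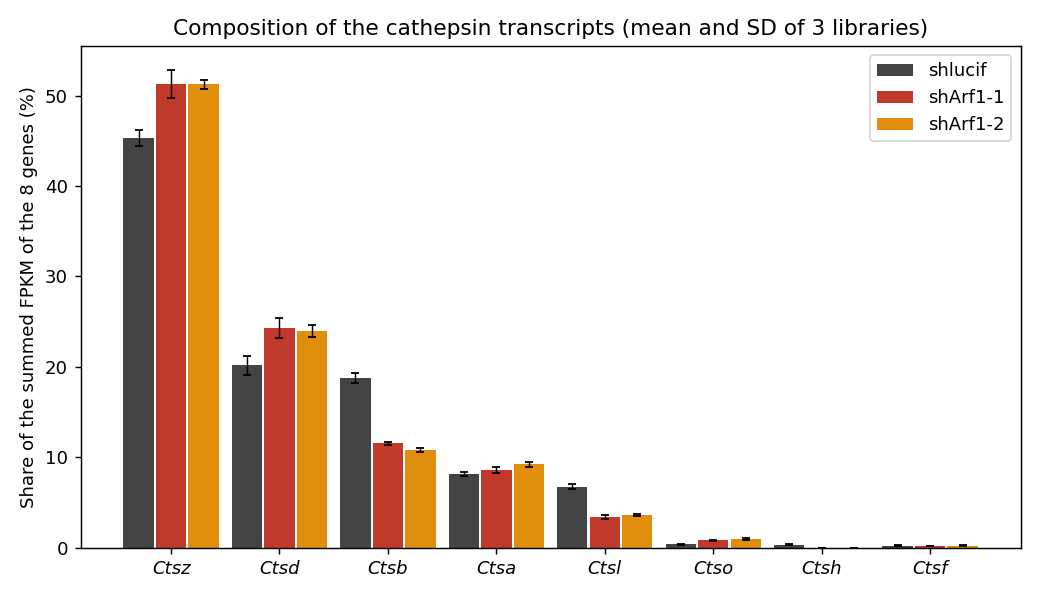
Share of each gene in the summed FPKM of the 8 lysosomal cathepsin genes (%), by hairpin group; bars are means and error bars SDs of 3 libraries. Ctsz and Ctsd took larger shares in the Arf1-deficient libraries, and Ctsb and Ctsl smaller ones.

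Each hairpin on its own gave the same calls, with 7 of 8 genes lower and Ctso not past the threshold. The fall of Ctsh again followed from its passing the filter through shlucif. Without Ctsh, 6 of 7 genes were lower with each hairpin. The background was 34.4% of tested genes lower with shArf1-1 and 32.6% with shArf1-2. Log2 fold changes with shArf1-1 were −2.10 for Ctsl, −1.80 for Ctsb, −1.68 for Ctsf, −1.03 for Ctsa, −0.92 for Ctsz, −0.83 for Ctsd and 0.04 for Ctso. With shArf1-2 they were −2.04 for Ctsl, −1.92 for Ctsb, −1.27 for Ctsf, −0.94 for Ctsa, −0.94 for Ctsz, −0.88 for Ctsd and 0.27 for Ctso. Both sets of values use the same 3 shlucif libraries, so their likeness is in part that of the shared controls.

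The direct comparison of shArf1-2 with shArf1-1, which uses no control library, found a difference past the threshold for 0 of the 7 cathepsin genes with counts in those libraries, against 14.4% of tested genes. edgeR, DESeq2 and limma each gave this count of 0, and 1 gene, Ctsb, had an unadjusted p under 0.05 in edgeR. The log2 difference of Ctsb was −0.12 (95% interval −0.23 to −0.01, adjusted p = 0.136). Without replicate 3 of shArf1-1 the same difference was −0.16 with an adjusted p of 0.0484, and over 18 alternatives the adjusted p ran from 0.0484 to 0.335. Differences were bounded closely for the abundant genes, with 95% intervals from −0.03 to 0.20 for Ctsa, −0.07 to 0.19 for Ctsl, −0.16 to 0.07 for Ctsd and −0.14 to 0.09 for Ctsz. They were bounded loosely for Ctsf, at 0.41 (−0.10 to 0.91), and for Ctso, at 0.23 (−0.03 to 0.49). Arf1 itself was higher with shArf1-2 than with shArf1-1 by 0.34 on the log2 scale (95% interval 0.24 to 0.45, adjusted p = 1.16e-05).

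**Figure D4:**
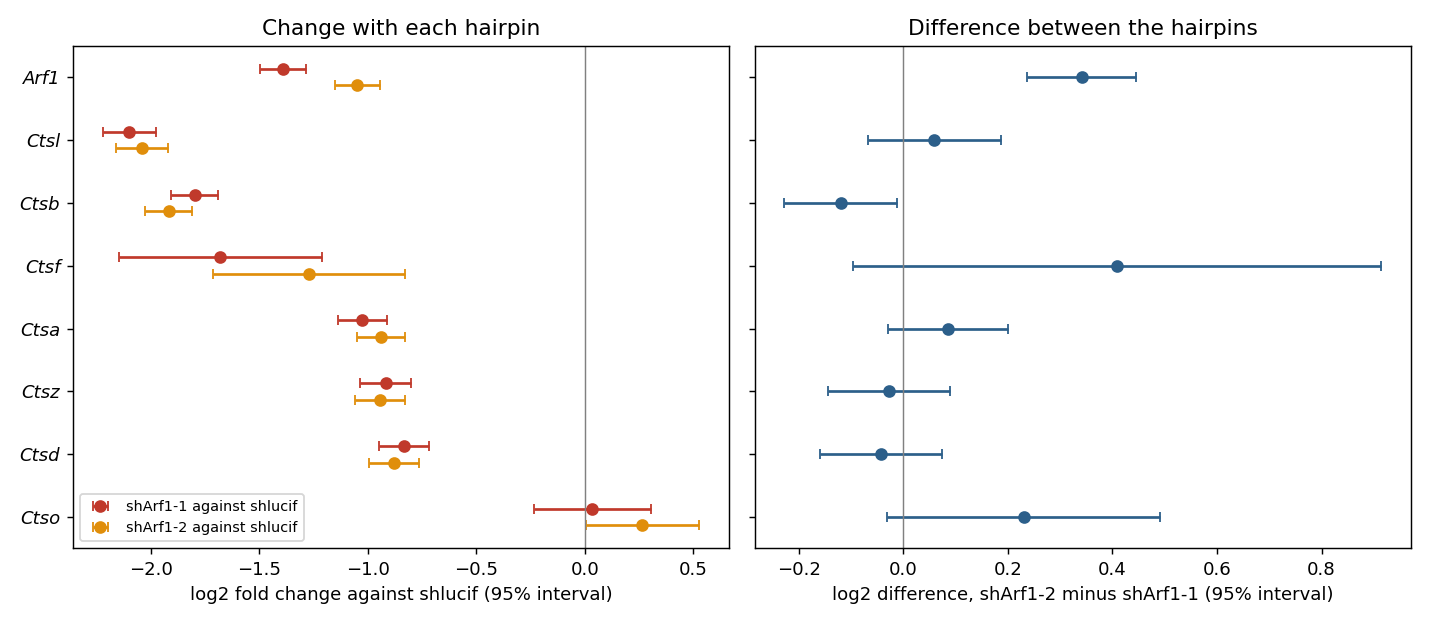
Left, log2 fold change against shlucif with each Arf1 hairpin, and right, log2 difference of shArf1-2 minus shArf1-1, for Arf1 and the 7 cathepsin genes with counts in all groups; bars are 95% intervals of edgeR's fit. Ctsl and Ctsb lie lowest and Ctso near 0, and among the right-hand values Arf1 lies farthest from 0 relative to its interval.

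The other genes of the cathepsin system were read from lists chosen by known function. Of 15 other cathepsin genes, 3 were tested, and these passed the filter on low counts only through shlucif, so that their being lower followed from the filter. Ctss was at 32.2 ± 2.1 FPKM in shlucif and 0 in all Arf1-deficient libraries, at least 196-fold lower against the floor of 3 counts per library. Ctsc was at least 96.1-fold lower by the same measure, and Ctsk, the collagen-degrading cathepsin of osteoclasts, went from 26.0 ± 1.4 FPKM to 0.173 with shArf1-1 and 0.0771 with shArf1-2. These genes are known from myeloid and bone-resorbing cells. Their levels and those of most macrophage markers were near 0 in the same libraries, and whether they share a source was not tested. Of 7 other lysosomal peptidases, 6 were tested, 5 were lower and Cpq was higher, beside 32.9% of all tested genes lower. Lgmn, the asparaginyl endopeptidase that cleaves several cathepsins to their mature forms, was the most abundant of them at 416 ± 17 FPKM in shlucif and fell less than the cathepsin genes that passed, with a log2 fold change of −0.27 (adjusted p = 0.000128). Scpep1 and Tpp1 were at −0.98 and −0.80, and Dpp7 and Prcp at −0.64 and −0.62 (log2).

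Of 13 inhibitors of cysteine proteases 4 were tested, and Cstb, Cst3 and Cst6 were lower, beside 32.9% of all tested genes. Cstb, the cytosolic inhibitor of cathepsins B, H and L, was at 250 ± 8.1 FPKM in shlucif, 119 ± 5.0 with shArf1-1 and 144 ± 6.9 with shArf1-2, a log2 fold change of −0.99 (SE 0.07, adjusted p = 1.46e-09). Cst3, the secreted cystatin C, was at −0.49 (SE 0.05, adjusted p = 8.4e-08). Cst6 was at −1.04 and Cst7, an inhibitor of immune cells, was at 22 to 25 counts in shlucif and 0 in the Arf1-deficient libraries, having passed the filter only through shlucif.

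Of 9 tested genes for mannose 6-phosphate tagging and cathepsin sorting, 3 were lower, 1 was higher and 5 did not pass the threshold. The share that was lower was near the 32.9% of all tested genes. The enzymes that attach and uncover the tag were at −0.03 (Gnptab), −0.10 (Gnptg) and 0.04 (Nagpa) on the log2 scale in the pooled comparison, none past the threshold. With single hairpins Gnptab passed in opposite directions, at 0.20 (SE 0.08, adjusted p = 0.0345) with shArf1-1 and −0.29 (SE 0.08, adjusted p = 0.00297) with shArf1-2. Between the receptors of the tag, M6pr was at −0.09 (adjusted p = 0.209; −0.14 with shArf1-2 alone, adjusted p = 0.0482), whereas Igf2r went from 4.30 ± 0.35 FPKM in shlucif to 0.613 ± 0.19 and 0.519 ± 0.084, with a 95% interval of the log2 fold change from −3.28 to −2.72 (adjusted p = 9.12e-13). Sorl1 and Lrp1, receptors of the low density lipoprotein receptor family, were at −4.99 and −1.63, and Sorl1 would not have passed the filter without the shlucif libraries. Sort1, the sorting receptor sortilin, was higher at 0.36 (SE 0.05, adjusted p = 1.3e-05).

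Each of the 4 tested genes whose products bind or travel with cathepsins was lower. Of all tested genes 32.9% were lower, and no list was tested as a set. Neu1, the sialidase that needs cathepsin A for its stability, was at 14.1 ± 0.41, 7.16 ± 0.43 and 6.89 ± 0.27 FPKM, a log2 fold change of −1.07 (SE 0.07) beside −0.98 for Ctsa. Glb1, the galactosidase of the same complex, was at −0.35. Grn, the progranulin gene, and Psap, the prosaposin gene, were at −1.56 and −0.56. Of 10 lysosomal membrane and lumen genes tested, 9 were lower and Mcoln1 was not past the threshold at −0.06 (adjusted p = 0.456). Npc2 and Lamp2 showed the largest falls there, at −1.22 and −0.83. The list medians were −0.63 for the other lysosomal peptidases, −0.49 for the membrane and lumen genes, −0.81 for the 4 partners and −0.09 for tagging and sorting, beside −0.98 for the 7 cathepsin genes without Ctsh.

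**Figure D5:**
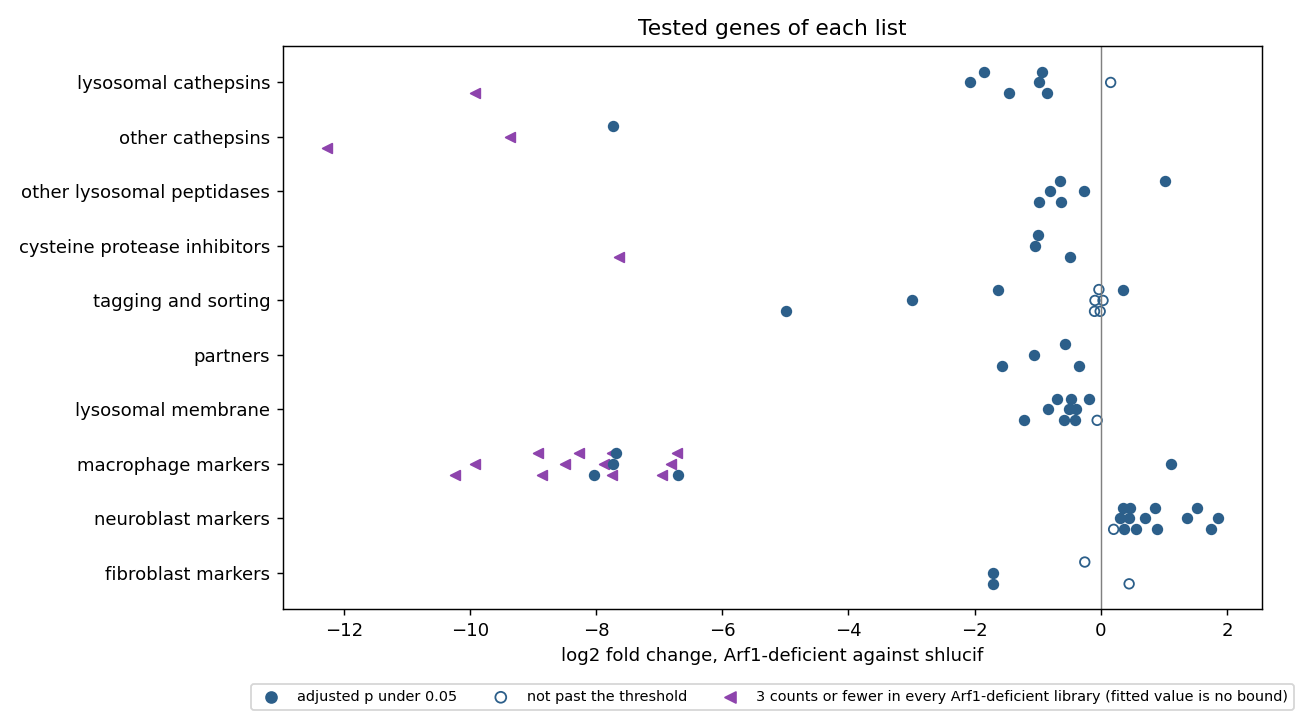
Log2 fold change of Arf1-deficient against shlucif libraries for the tested genes of each list; each point is a gene, filled where the adjusted p is under 0.05. Triangles mark genes with at most 3 counts in each Arf1-deficient library, whose fitted value is no bound; most cathepsin genes lie between −2.07 and −0.86, most macrophage markers below −6, and most neuroblast markers above 0.

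Among tested genes other than the 8, the one most like each cathepsin gene was found by Pearson's r of log2 CPM over the 9 libraries, from 10633 genes with at least 5 CPM in their highest group. It was Hspa8 for Ctsa (r = 0.999, log2 fold change −1.01), Spp1 for Ctsb (r = 0.999) and Man1c1 for Ctsd (r = 0.993, −0.84). It was Susd2 for Ctsf (r = 0.994, −1.14), Mef2c for Ctsl (r = 0.999), Dap for Ctsh (r = 1.000) and P2rx3 for Ctsz (r = 0.999, −1.66). These r values describe a step between control and knockdown libraries that many genes share, since 517 to 1191 genes had an r over 0.95 with each of these 7 cathepsin genes. They take no account of the size of a change. Spp1 and Mef2c were fitted at −11.7 and −9.31 (log2), beside −1.86 for Ctsb and −2.07 for Ctsl, and Dap at −10.2. The counts of Spp1, Mef2c and Dap are not given here, and fitted values of that size are no bound on a change. Ctsh had no count in any Arf1-deficient library, so its r describes little beyond that step. Ctso stood apart, with no gene over 0.95 and Cdk5rap1 the most alike at r = 0.930.

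Since cathepsin genes are known targets of the TFE family of transcription factors, which bind the palindromic E-box CACGTG, start-site windows of the 8 genes were searched for these letters. Windows of 300 bases, 250 before and 50 after a RefSeq start (GRCm38.p6), were found for 6 of the genes, and Ctsa had a pair of windows. The letters were present for Ctsa, Ctsd, Ctsf and Ctsl, and in 7.15% of 32851 windows of all genes. They were not in the windows of Ctso and Ctsz or in the first window of Ctsa. The stretches below show each match with its neighbours on the gene's strand, with the hexamer in capitals, and positions count from the first transcribed base. The Ctsa matches begin at −12 and 6, the Ctsd matches at −245 and −98, the Ctsf match at −79 and the Ctsl match at −236. The bases before the start overlapped annotated exons of longer transcripts at the second Ctsa window and at Ctsd, Ctsf and Ctsl. A match is a description of the sequence and not a bound site, and a window without one shows nothing about a factor.
Ctsa, chr2:164833749-164833778, plus strand: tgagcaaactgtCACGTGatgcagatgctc
Ctsa, chr2:164833766-164833795, plus strand: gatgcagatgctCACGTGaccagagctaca
Ctsd, chr7:142388048-142388077, minus strand: tccccCACGTGacctgtatccagtcattct
Ctsd, chr7:142387908-142387937, minus strand: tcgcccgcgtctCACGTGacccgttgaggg
Ctsf, chr19:4855074-4855103, plus strand: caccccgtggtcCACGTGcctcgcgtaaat
Ctsl, chr13:64370739-64370768, minus strand: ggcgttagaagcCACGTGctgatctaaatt

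All 8 genes are protein coding, and in GENCODE M21 (GRCm38) they lie on 7 chromosomes. Ctsa is at chr2:164832873-164841032, Ctsz at chr2:174427493-174439039, Ctso at chr3:81932601-81956725 and Ctsd at chr7:142375911-142388038. Ctsh is at chr9:90054152-90076089, Ctsl at chr13:64359337-64370890, Ctsb at chr14:63122462-63145923 and Ctsf at chr19:4855130-4860918. Exons of Ctsb share 1545 bases with Fdft1 on the opposite strand, and those of Ctsa share 1485 bases with Pltp and 324 bases with Neurl2, also on the opposite strand. Ctsl shares 1742 exon bases with the antisense gene Gm47123 and 395 with the pseudogene Gm49230 on its own strand, which were not analysed here. Ctsd shares 1274 bases with Gm49369 on its own strand, which is listed at 0, and Ctsz shares 20 bases with Nelfcd on the opposite strand. Whether reads were counted by strand is not given in the sources used here, so the counts of these genes, Ctsl among them, are uncertain by the reads of such partners. Pltp held at most 353 counts in a library, against at least 1305 for Ctsa, and Fdft1 at most 1545 counts against at least 2320 for Ctsb.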

How the data were processed

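Poly(A) RNA-seq libraries of N2a cells were assigned to shlucif, shArf1-1 and shArf1-2 by their titles. The authors deposited 1 table with a read count and an FPKM value per gene and library, aligned to mm10 per the submitters' processing notes; the aligner, counting tool and strand setting are not given in the sources used here. The deposited FPKM values equal the counts divided by the listed gene length and the library total. Columns named for a second hairpin without Arf1 in their name were read as shArf1-2. In the table, 8 lines without a gene were left out. Table coordinates differ from GENCODE M21 for most genes and were not used.

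Counts were filtered (filterByExpr), scaled by TMM and tested with edgeR 4.0.16 quasi-likelihood fits in R 4.3.3, with 2 groups for the pooled comparison and 3 groups otherwise, and Benjamini-Hochberg adjustment over 12448 genes. Intervals are 95% intervals from the fit. DESeq2 1.42.0 and limma 3.58.1 on log2(FPKM + 1) and log2(FPKM + 0.1) were alternatives, beside other scalings and filters, a replicate block and leaving out each library. On simulated counts for the pooled comparison, 191 of 197 changed genes and 7 unchanged genes were called among 12341 tested. With single hairpins, 11 (shArf1-1) and 9 (shArf1-2) unchanged genes were called. The simulation changed 200 genes, alike with both hairpins, while 64.5% of tested genes passed in the data. It does not cover changes that broad. Libraries of a group differed beyond sampling noise (chi-square per degree of freedom 2.99 to 8.61).

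The members and lists were chosen with earlier results of these data known. Named genes are the 8 members, Arf1, up to 4 genes per list and direction with the largest change past the threshold (fewer are given here), genes acting on cathepsins, and per member the gene of highest Pearson's r. Values of the remaining listed genes are not reported here.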

Additional observations from a re-analysis of the deposited data

Results flagged for a closer look

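For 13 of 51 named genes tested, the change with shArf1-2 differed from that with shArf1-1 by edgeR's test of the difference. Each test had 3 libraries a group, and no cathepsin gene was among the 13. Of all tested genes, 14.4% differed. Arf1 was higher with shArf1-2 by 0.34 (log2, adjusted p = 1.16e-05). Among genes acting with cathepsins, Scpep1 was at −0.36 (adjusted p = 3.3e-05), Cstb at 0.26 (0.00488), Cst6 at 0.80 (0.0223), Grn at 0.17 (0.0488), Lrp1 at 0.30 (0.00302), Scarb2 at 0.18 (0.0161) and Gnptab at −0.49 (8.17e-05), as log2 differences of shArf1-2 minus shArf1-1 with adjusted p in parentheses. Among cell type markers, Dbh was at −0.78 (adjusted p = 0.00674), Gata3 at −0.39 (0.0329), Chgb at −0.47 (9.01e-09), Col1a1 at 1.41 (0.00229) and Pdgfrb at 0.91 (8.81e-06).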

How the results depend on the processing

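The falls of Ctsa, Ctsb, Ctsd, Ctsf, Ctsl and Ctsz passed the threshold under all 18 alternatives in the pooled and single-hairpin comparisons. That of Ctsh passed under all 17 that tested it (not with at least 10 counts in every library). Ctsh had no count in any Arf1-deficient library, so these 17 passes followed from its being tested at all. Ctsf ran from −1.55 to −0.64 in the pooled comparison, the latter on log2(FPKM + 1). Ctso with shArf1-2 passed the threshold as higher with library totals only (0.34), limma on log2(FPKM + 1) (0.24) and log2(FPKM + 0.1) (0.33), without shlucif replicate 1 (0.36) and without shArf1-2 replicate 3 (0.35). With 1 library left out, Ctso with shArf1-1 ran from −0.027 to 0.13 (below 0 without shlucif replicate 2 and without shArf1-1 replicate 1, at −0.019), and Ctsz between the hairpins from −0.085 to 0.010 (above 0 without shArf1-1 replicate 2). In the same way, 0 to 1 cathepsin genes and 1159 to 1977 of all genes differed between the hairpins (lowest without replicates 1 of shArf1-1, at 1159, and of shArf1-2, at 1194). With at least 10 counts in every library, 1 fibroblast marker passed, as fewer genes were tested. The causes of the other shifts were not tested. Median log2 fold changes of all genes stayed between −0.02 and 0.07. Same-numbered libraries of different groups had deviations correlated at −0.08 to 0.09 over 9 pairs, so the numbers did not pair them; with the replicate block 7 cathepsin genes and 7808 of all genes passed in the pooled comparison. Ctsf, Ctsh and Ctso rest on the fewest counts, which limits their precision.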
